A study of Mus musculus with 12 samples.

Results

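MLL1 knockout and wild-type mouse embryonic fibroblasts were compared 18 h after a serum shock, using 6 of the 12 Affymetrix gene expression arrays of the study. Mouse embryonic fibroblasts are connective tissue cells grown from embryos. The 3 arrays of each genotype were chosen by their titles, and the other 6 arrays hold the same 2 genotypes at 30 h. All cells, wild type included, were grown in DMEM with 5% FBS and 5% NCS and had received 50% horse serum for 2 h. The labels give the genotypes as wild type and MLL1 knockout, and name no line, clone, animal age or disrupted part of the gene. They also do not say whether replicates came from separate cultures. The p-values therefore rest on array-to-array spread, which could be technical only.

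MLL1, the protein encoded by Kmt2a, is a methyltransferase that places methyl groups on lysine 4 of histone H3, a mark of active promoters. It works in a complex with WDR5, RBBP5, ASH2L and DPY30, is tethered through menin, and recognises unmethylated CG dinucleotides in DNA. It is known for keeping HOX genes active during development, and it has been tied to the circadian clock as a partner of CLOCK and BMAL1. A serum shock aligns the clocks of cultured fibroblasts, which is why sampling times are counted from it.

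Each gene was represented by 1 probe set, and 13956 of 19938 genes were bright enough on average over the 12 arrays to be tested. All differences below are knockout minus wild type on the scale log2(intensity + 16), where 1 is a doubling and dim genes are understated. A gene was called when limma's adjusted p was under 0.05. Array medians at 18 h lay between 284.5 and 311.8, and arrays of 1 genotype correlated at 0.984 to 0.995 against 0.771 to 0.798 between genotypes. One array stood apart. Knockout replicate 1 had 35 tested genes at least 2-fold away from the mean of the other 2 knockout arrays, while replicates 2 and 3 had 13 and 16 by the same measure and the wild-type arrays 7 to 13. Values without it are given where leaving it out ended a call of a gene described, and for several other genes in which it lay apart from the other knockout arrays.

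Of the tested genes, 60.1% were called at 18 h, 26.3% higher in knockout and 33.8% lower. Most of these differences were small, with a median size of 0.572 and 76.0% of called genes under 2-fold. A 2-fold rise was seen in 6.36% of tested genes and a 2-fold fall in 8.07%. Rises and falls numbered 888 and 1126 at a log2 size of 1 or more, 304 and 368 at 2, and 129 and 201 at 3. At a log2 size of 4 or more there were 51 rises and 121 falls, and at 6 or more 5 rises and 25 falls. Rises made up 43.8% of calls with the deposited values and 48.4% to 49.7% after 3 other scalings between arrays. A list with shares of rises and falls near 26.3% and 33.8% looks like the array as a whole.

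Kmt2a itself read 2265, 2824 and 2100 in wild type and 2120, 2174 and 1960 in knockout. The 2 genotypes overlapped, and the difference of -0.19 ± 0.0977 (SE) had an adjusted p of 0.108. At 30 h Kmt2a read 2129, 2155 and 2069 in wild type and 1338, 1367 and 1584 in knockout, without overlap (-0.57, adjusted p = 0.000111), and the difference between times was not called (adjusted p = 0.0653). Without wild-type replicate 3 at 18 h, the 18 h difference was -0.28 with an adjusted p of 0.0235. The labels do not place the probes relative to the disruption, so these values check nothing about the genotypes.

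Some genes typical of fibroblasts were bright in both genotypes, and others were not. Vim, the intermediate filament of mesenchymal cells, read 16410, 16642 and 16442 in wild type and 14728, 15010 and 15343 in knockout. Fn1, which encodes fibronectin, read between 13855 and 15953 on all 6 arrays, and Col1a1 rose by 0.52 and Col1a2 by 0.21. Summed over the 19 fibroblast markers on the array, intensity was 72879 to 76736 in wild type and 71388 to 73722 in knockout. This sum and those of lists below take in untested members. Among the 16 tested members the directions parted: 5 rose and 8 fell. Dcn, which encodes the proteoglycan decorin, went from 523.7, 386.9 and 357.2 to 5475, 5799 and 6023 (3.74 ± 0.125, adjusted p = 1.25e-13). Cd34, a surface marker of progenitor fibroblasts, rose by 3.65. Pdgfra, the receptor for platelet-derived growth factor that marks fibroblasts, went from 3620, 4040 and 3774 to 440.1, 354.5 and 391.6 (-3.22 ± 0.0851, adjusted p = 6.6e-15). Dpt, Col3a1 and Pdgfrb fell by 4.86, 2.53 and 1.63. Vim, Fn1 and the type I collagens differed by less than 2-fold, while other markers of the same cells differed by more than 8-fold in opposite directions. Of the 16 tested markers 6 fell and 2 rose by at least 2-fold, so the list does not settle the cell type label.

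Markers of other cells differed by list. No tested endothelial marker was called (0 of 2), and 1 of 8 epithelial markers, Krt19, rose by 0.28, a call that was lost without knockout replicate 1 (0.23, adjusted p = 0.0574) or wild-type replicate 2 (0.22, adjusted p = 0.0784). Cd68, a lysosomal protein of macrophages, was the 1 called of 6 blood and macrophage markers, and knockout replicate 1 lay apart from the other 2 (1315, against 2635 and 2964). Its rise was 0.88, and 1.24 without replicate 1. Of 7 smooth muscle and pericyte markers Acta2 and Mcam rose by 1.81 and 1.49, and Angpt1, Cspg4 and Notch3 fell by 6.81, 2.56 and 0.70. Tnnt2, Pax3 and Actc1, 3 of 7 skeletal muscle markers, rose by 4.50, 0.65 and 0.48, and the other 4 were not called. The summed intensity of that list went from between 2002 and 2099 to between 4065 and 4316. Most of that rise was Tnnt2 alone, whose mean went from 69.6 to 1919. Adipocyte markers, with 8 of 9 lower, are described below. In the neural list, Nrcam, Nes, Map2, Ncam1 and Tubb3 rose, 5 of 9 tested members, and the summed intensity of the list went from between 2501 and 2586 to between 17158 and 18176. Sox2, Sox10 and Syp, which define neural progenitors, glia and synapses, were level (0.01, -0.02 and -0.12). In bulk RNA, fewer cells of a type and less RNA per cell cannot be told apart, and the part of other cell types in the values below was not tested.

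Arrays of the genotypes did not overlap for 63.1% of tested genes at 18 h. The 12 largest rises without overlap, HOX, interferon-stimulated and predicted genes aside, were in genes close to background in wild type. Cyfip2, a subunit of the WAVE complex that starts branched actin networks, read 76.4, 72.1 and 81.1 in wild type and 17596, 18669 and 18551 in knockout. Its difference of 7.63 ± 0.0717 (adjusted p = 4.5e-20) was the largest of any tested gene in either direction. Of 13 tested members and partners of that complex, Cyfip2 included, 4 rose (30.8%) and 2 fell (15.4%), against 26.3% and 33.8% over all tested genes. The other members that rose were Abi1, Abi2 and Rac1 at 0.49, 0.25 and 0.19, and those that fell were the GTPase gene Rac3 at -1.24 and Wasl at -0.35. Secreted and lysosomal enzymes were among the leaders. The serine protease gene Htra1 went from 67.5, 37.2 and 78.9 to 5711, 6522 and 6924 (6.41 ± 0.182, adjusted p = 1.56e-14). Ctsc, which encodes the lysosomal protease cathepsin C, went from 26.3, 25.3 and 13.3 to 3128, 2977 and 3131. Mmp10, a matrix metalloproteinase, went from 27.6, 17.8 and 24 to 1575, 2092 and 2385. None of Cyfip2, Htra1, Ctsc and Mmp10 exceeded 81.1 on any wild-type array.

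The remaining leaders included genes known from neurons. Nrcam, a neuronal adhesion molecule, read 39.9, 44.2 and 52.3 in wild type and 4952, 5109 and 5094 in knockout (6.37 ± 0.0979, adjusted p = 2.85e-17). Map2, which binds dendritic microtubules, went from 18.6, 18.6 and 17.9 to 2185, 2414 and 2122. Nes, the intermediate filament nestin of neural progenitors, went from 32.7, 40.6 and 29.1 to 2789, 2403 and 2336. Wild-type and knockout arrays were separated widely in each. Cxadr, a tight junction protein used by coxsackie- and adenoviruses as a receptor, rose by 5.81 ± 0.197. The matrix glycoprotein gene Tnc, tenascin C, was the brightest of the group in wild type and went from 187.3, 192.3 and 133.5 to 8349, 9259 and 8951 (5.58 ± 0.115). Stc1, a secreted calcium-regulating hormone, rose by 5.53, the interleukin 13 receptor subunit gene Il13ra1 by 5.65, and the lysophospholipid acyltransferase gene Mboat2 by 5.96.

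The 12 largest falls were in genes that were bright in wild type. Cyp2f2, a cytochrome P450 best known from lung and liver, read 8285, 8231 and 8550 in wild type and 38, 31 and 29.6 in knockout (-7.42 ± 0.108, adjusted p = 1.61e-17). The small matrix proteoglycan gene Aspn went from 5099, 4995 and 5746 to 13.8, 19.3 and 14.6. Mgp, the matrix Gla protein that blocks calcification, went from 7335, 6721 and 7534 to 53.5, 36.5 and 49.6. No knockout array of these genes came above 53.5. Il1rn, the natural antagonist of the interleukin 1 receptor, went from 6024, 5768 and 6250 to 36.1, 29.8 and 42.9 (-6.86 ± 0.128, adjusted p = 1.33e-16). Rspo2, a secreted amplifier of WNT signalling, went from 5178, 5576 and 5139 to 19.3, 31.7 and 41.3. Angpt1, the ligand of the endothelial receptor TIE2, went from 4502, 4488 and 4165 to 40.7, 11.6 and 22.5. The genotypes did not come near each other on any of these arrays.

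Of the other large falls, Hp encodes haptoglobin, which binds free haemoglobin, and fell by 6.37 ± 0.19. The amine oxidase gene Aoc3 fell by 6.13, and Cd36, a fatty acid receptor, by 6.05. Adam23, a membrane protein without protease activity that binds integrins, fell by 6.14. The matrix gene Sparcl1 fell by 6.08 and Kctd12b, a member of the potassium channel tetramerisation domain family, by 5.96. These 24 genes all had adjusted p-values of 9.53e-12 or less.

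**Figure D1:**
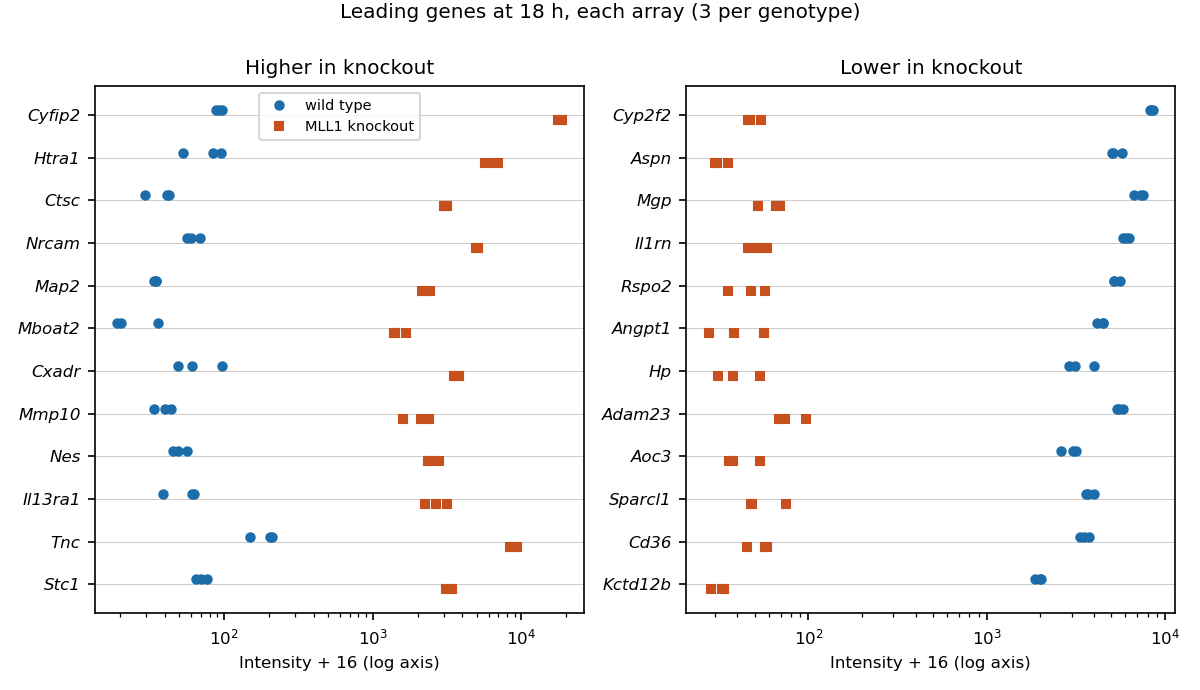
Intensity + 16 on a log axis for the 12 genes with the largest rises (left) and the 12 with the largest falls (right) at 18 h; each circle is a wild-type array and each square a knockout array, 3 per genotype. In every row the 2 genotypes are separated without overlap, from Cyfip2 (72.1 to 81.1 against 17596 to 18669) to Kctd12b (1849 to 1990 against 12.4 to 17.5).

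The sequence just before the start site is shown for 4 of these genes, because MLL1 recognises CG dinucleotides. They are the 2 brightest in wild type and the 2 brightest in knockout, among genes bright in 1 genotype only as defined below, that have an entry in the RefSeq promoter table. Interferon-stimulated, HOX and predicted genes, some of them brighter in wild type, were passed over. Each is the 250 bases upstream of the gene's first listed start (Il1rn has 3 starts), 5′ to 3′ on the gene's strand, build GRCm38.p6, with every CG in capitals. Cyp2f2 (chr7:27119705-27119954, plus strand) and Il1rn (chr2:24336610-24336859, plus strand) fell, while Cyfip2 (chr11:46312359-46312608, minus strand) and Htra1 (chr7:130935953-130936202, plus strand) rose.
Cyp2f2: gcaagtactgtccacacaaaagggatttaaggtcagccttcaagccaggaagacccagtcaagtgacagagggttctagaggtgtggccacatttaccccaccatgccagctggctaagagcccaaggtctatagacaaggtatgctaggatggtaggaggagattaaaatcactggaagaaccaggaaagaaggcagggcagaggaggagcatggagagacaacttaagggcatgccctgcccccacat
Il1rn: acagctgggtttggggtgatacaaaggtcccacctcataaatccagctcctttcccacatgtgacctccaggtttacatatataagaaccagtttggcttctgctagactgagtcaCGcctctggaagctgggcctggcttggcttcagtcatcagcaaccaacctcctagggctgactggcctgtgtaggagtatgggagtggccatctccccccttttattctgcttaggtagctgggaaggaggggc
Cyfip2: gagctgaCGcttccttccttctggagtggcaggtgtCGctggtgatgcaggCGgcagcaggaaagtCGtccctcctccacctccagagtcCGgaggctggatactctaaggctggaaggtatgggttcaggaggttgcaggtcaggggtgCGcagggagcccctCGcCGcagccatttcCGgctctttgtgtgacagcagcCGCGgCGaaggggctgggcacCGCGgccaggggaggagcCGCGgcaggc
Htra1: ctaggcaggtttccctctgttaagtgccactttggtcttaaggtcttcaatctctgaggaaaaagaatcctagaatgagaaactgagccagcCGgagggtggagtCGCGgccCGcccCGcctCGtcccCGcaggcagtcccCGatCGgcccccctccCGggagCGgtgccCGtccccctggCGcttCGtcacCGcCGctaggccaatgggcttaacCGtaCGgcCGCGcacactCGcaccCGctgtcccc

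The Cyp2f2 window held 0 CG and the Il1rn window 1, against 16 in Cyfip2 and 22 in Htra1. Over the 27025 genes of the table the median was 6, with quartiles of 2 and 16. Both strands were searched for TATAAA (the TATA box), for TGACTCA (the AP-1 site), for CACGTG (the E-box) and for GGAATG (the TEAD site). A match was found in the Il1rn window alone, for the AP-1 site, which 5.16% of all windows hold. These 4 windows describe 4 genes. Too few of the genes below had an entry (61.9% of those bright in wild type only and 65.0% of those bright in knockout only) for a comparison of groups.

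Genes bright in 1 genotype only were defined by an intensity of at least 1000 on all 3 arrays of one genotype and at most 100 on all 3 of the other. Over all genes 29.8% of values at 18 h were at or above the upper limit and 14.5% at or under the lower. By this definition 84 genes, 0.421% of 19938, were bright in wild type only and 40, 0.201%, in knockout only. Since values at 18 h chose them, their 18 h differences are a description. Of the 84, 33 belong to the interferon-stimulated or HOX lists, leaving 51, while none of the 40 does. Some of the 51 are interferon-inducible genes that the list missed by name, among them Gm12250 and the Trim30 family pseudogene Trim30e-ps1. Just inside the limits lay Pla2r1 (lowest wild-type array 1324, highest knockout array 99.0) and Gxylt2 (lowest knockout array 1111, highest wild-type array 99.2). Just outside lay Ebf3 (1181 and 100.1) and Smtnl2 (1016 and 100.4).

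**Figure D2:**
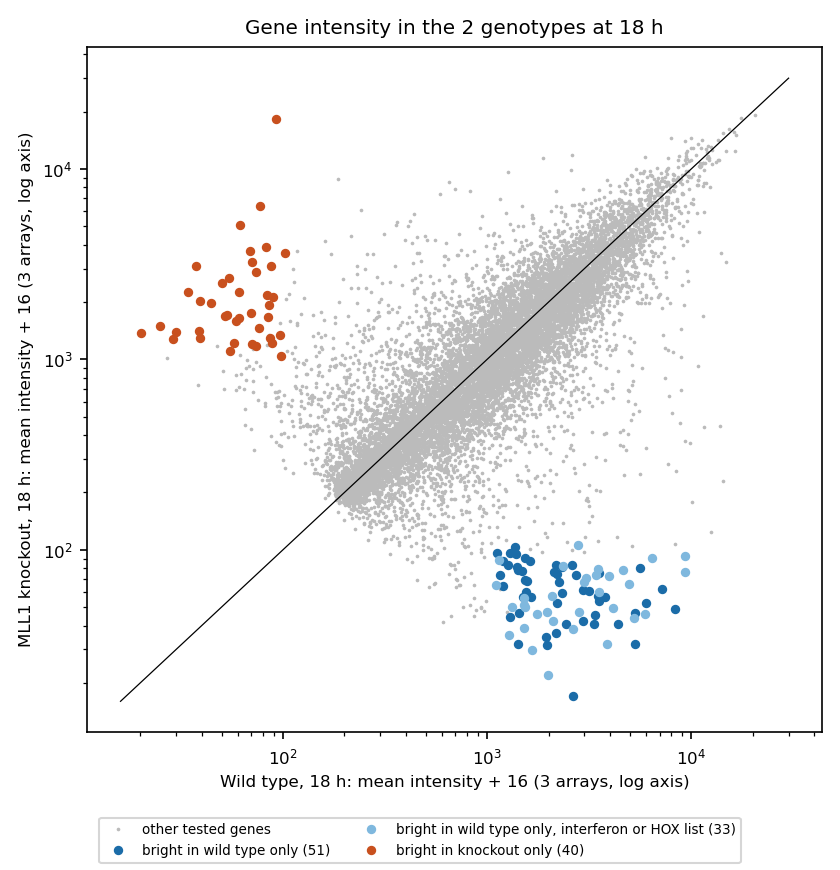
Mean intensity + 16 of wild type (x axis) against MLL1 knockout (y axis) at 18 h, 3 arrays each, both axes logarithmic; grey points are other tested genes and the line marks equality. The 51 and 33 genes bright in wild type only sit at the lower right and the 40 bright in knockout only at the upper left; 4 of those 40 were too dim on average to be tested.

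Among the genes bright in wild type only, Apod, a lipid carrier, read 2720, 2847 and 3889 in wild type and 42.9, 55.5 and 35.7 in knockout. Agt, the precursor of angiotensin, read 3169, 3384 and 4052 against 51.7, 60.2 and 65.3. Ptn, the growth factor pleiotrophin, read 3383, 3531 and 3470 against 40.3, 43.9 and 38.7. All 3 encode secreted proteins. The endothelial surface genes Thbd, thrombomodulin, and Cd93 had means of 2714 and 2600 in wild type and 57.4 and 67.1 in knockout. Enpep, an aminopeptidase that cleaves angiotensin II, went from a mean of 2413 to 24.8. The lipid droplet gene Plin4 went from a mean of 2317 to 65.0 and the adipocyte hormone gene Adipoq from 1346, 1320 and 1776 to 40.4, 14 and 67.8. The receptor genes S1pr3, for sphingosine 1-phosphate, and Adgrf5, of the adhesion family, had knockout means of 36.5 and 58.5 against 2180 and 2176.

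Among the genes bright in knockout only, Rab3b, a small GTPase of secretory vesicles, read 27.9, 20.4 and 37.4 in wild type and 1723, 2035 and 2096 in knockout. Tnnt2, cardiac troponin T, read 80, 67.2 and 61.7 against 1950, 1919 and 1890. Cadm1, a synaptic and epithelial adhesion molecule, read 33.5, 39 and 38.5 against 1980, 1623 and 1482. These 3 genes did not exceed 80 on any wild-type array. Tom1l1, an adaptor of endosomal sorting, rose by 5.15, as did Mgarp, a protein of mitochondria. Akr1c18, the enzyme that inactivates progesterone, read 48.5, 26.1 and 34.2 against 1800, 1448 and 1755. The transcription factor gene Sox11, active in neural progenitors, read at most 7.21 in wild type and 1216, 1427 and 1416 in knockout, and was not tested because its mean over the 12 arrays was under the filter. Flt4, the receptor for VEGF-C, and the lipid flippase gene Atp8a1 were left untested in the same way, with knockout means of 1096 and 1259. Lce1g, a gene of the cornified layer of skin, and Tnfsf18, the ligand of the immune receptor GITR, were uneven between knockout arrays. Lce1g read 1766, 4090 and 5762 in knockout and Tnfsf18 1510, 3350 and 3715, with replicate 1 lowest in both. Their differences of 5.41 and 5.19 were 5.89 and 5.59 without it.

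The intensity limits were set on the arrays of 18 h alone, while the probe set of each gene and the filter for testing used the mean over all 12 arrays, those of 30 h included. All 84 genes bright in wild type only passed the filter, mainly through the wild-type arrays, those of 30 h included. Their 30 h values are therefore also a description. All 84 were called lower in knockout at 30 h, as were 28.6% of tested genes. Their 2 genotypes did not overlap at 30 h, as was so for 61.5% of tested genes. The 30 h differences of the 51 outside the interferon and HOX lists ran from -7.05 to -2.48 with a median of -4.83, and 38 of them met the same limits again. The smallest difference was that of Prl2c5, a proliferin gene with close copies that probes may not separate, whose knockout mean was 44.3 at 18 h and 425.4 at 30 h. Of the 40 bright in knockout only, 25 met the limits again, and all 40 were without overlap at 30 h. For these genes the filter passes through the knockout arrays, those of 30 h included, so the 36 that were tested had to be high there. Their 30 h differences, from 1.57 to 6.76, are given as a description, and 24.3% of all tested genes were called higher at 30 h. Cyfip2 had a knockout mean of 18272 at 18 h and 10130 at 30 h, where its difference was 6.76. The difference between the times was itself called for 8 of the 51, against 20.3% of tested genes. Among the 36 tested genes bright in knockout only it was called for 15. Of the genes bright in knockout only, Tnfsf18 went from 5.19 at 18 h to 1.57 at 30 h, where its knockout mean was 226.3 (difference between times 3.61, adjusted p = 1.05e-05). Atp8a1, Flt4 and Sox11 had 30 h knockout means of 676, 432.2 and 877.4 against wild-type means of 21.5, 31.1 and 5.14.

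The remaining lists group genes by what their products do, and the plot of calls by list sets each beside the share over all tested genes. Among lists with at least 12 tested members, integrins, neuronal microtubule and vesicle genes, immunoglobulin-type adhesion molecules and the smooth muscle contractile apparatus had the highest shares of rises, 57.1% to 61.1%. Complement, glutathione enzymes, cell cycle inhibitors and Toll-like receptors had the highest shares of falls, 58.3% to 85.7%.

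**Figure D3:**
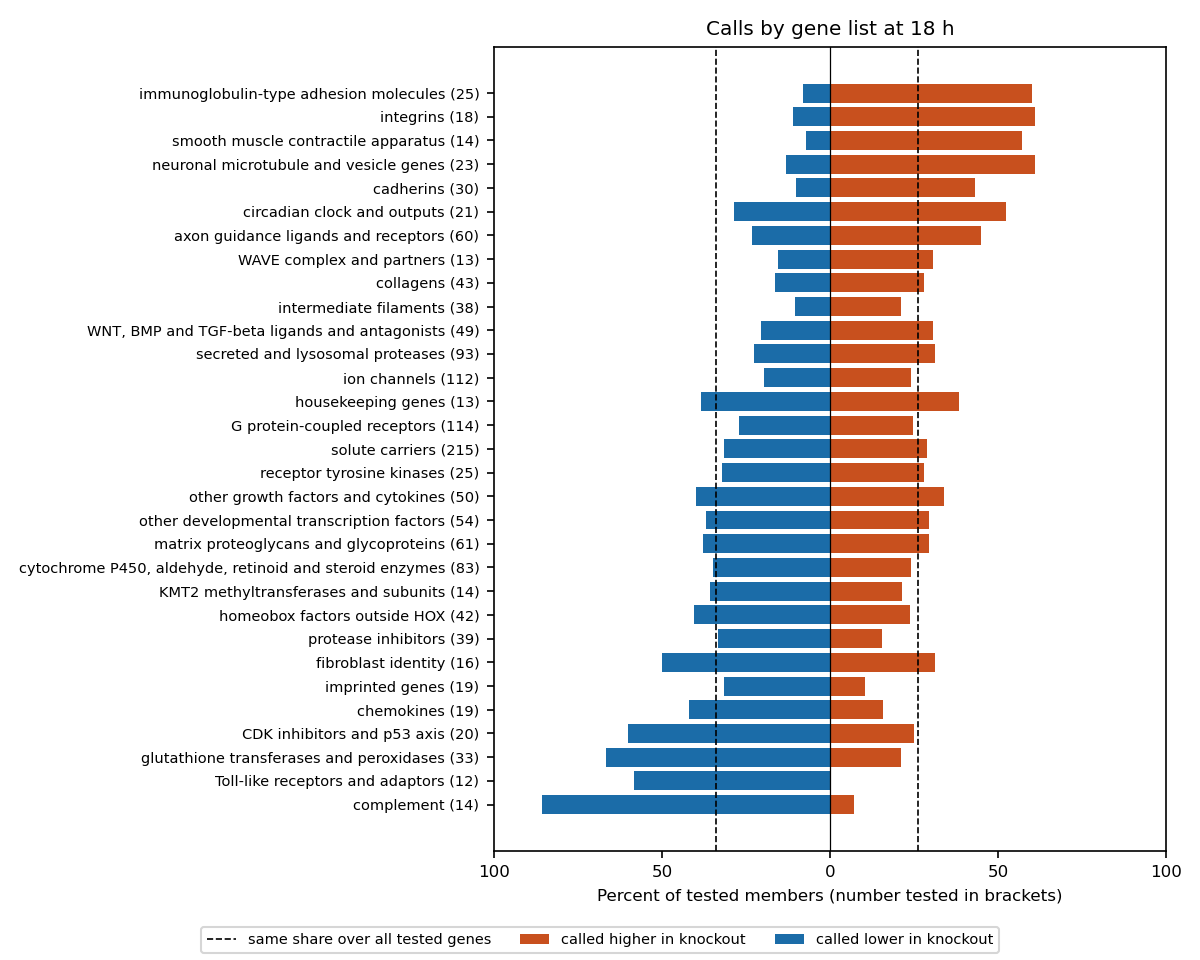
Percent of tested members called higher in knockout (right, orange) and lower (left, blue) at 18 h for each gene list with at least 12 tested members, which are counted in brackets. Dashed lines mark the shares over all tested genes, 26.3% higher and 33.8% lower; immunoglobulin-type adhesion molecules lie at 60.0% higher and complement at 85.7% lower.

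The subunits and relatives of the MLL1 complex had shares near those of the array as a whole, 26.3% higher and 33.8% lower. Of 14 tested genes 3 rose (21.4%) and 5 fell (35.7%), with a median of -0.05 against -0.03 over all tested genes. Men1, which encodes menin, the adaptor that MLL1 shares with MLL2, went from 1204, 1171 and 1256 to 2605, 2147 and 2232 (0.93 ± 0.0826, adjusted p = 4.29e-08). Setd1b, a methyltransferase of the same family, went from 1408, 1560 and 1401 to 631.6, 399.6 and 382.2 (-1.63 ± 0.136, adjusted p = 1.93e-08). Kmt2c and Kmt2d, the enhancer methyltransferases, fell by 0.74 and 0.67, while Kmt2b, the closest relative of Kmt2a, differed by 0.01 (adjusted p = 0.967). The genotypes did not overlap for Men1, Setd1b, Kmt2c or Kmt2d, as for 63.1% of tested genes. Setd1b was at -1.85 without knockout replicate 1. Among enzymes of DNA methylation, Dnmt1 rose by 0.65 and its partner Uhrf1 by 0.63, and Tet1 fell by 0.68. Of 7 tested genes outside the HOX clusters known as MLL1 targets, 1 rose and 4 fell. The fall of Mecom, a zinc finger factor of blood stem cells, was 1.34 and that of the cell cycle inhibitor Cdkn2c 1.38, while Mef2c, a muscle and neuronal transcription factor, rose from 79.6, 61.6 and 70.8 to 1413, 1270 and 1156. Meis1, the best known of these targets, was level at -0.08 (adjusted p = 0.557).

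Of 42 tested homeobox factors outside the HOX clusters 10 rose (23.8%) and 17 fell (40.5%), against 26.3% and 33.8% over all tested genes. Satb1, a chromatin organiser of lymphocytes and neurons, went from 43.1, 25.8 and 35.2 to 886.8, 852.6 and 829.3 (4.12 ± 0.154, adjusted p = 5.29e-13). The Iroquois genes Irx3, Irx1 and Irx5 fell by 2.26, 1.86 and 1.37, while Irx2 and Irx6 were not called (-0.06 and -0.13). Dlx1, a limb and forebrain factor, fell by 2.07, and was at -2.37 without knockout replicate 1. Of 54 other developmental transcription factors 16 rose (29.6%) and 20 fell (37.0%), near the array as a whole. Runx3, a RUNX factor of T cells and sensory neurons, went from 8.11, 12.4 and 12.9 to 1221, 905.1 and 887 (5.22 ± 0.128, adjusted p = 2.6e-15). Osr1, Foxf1 and Zic2, factors of kidney, gut mesenchyme and neural tube, rose by 3.04, 2.78 and 2.34. Of the 4 tested early B cell factor genes, Ebf1, Ebf2 and Ebf3 fell and Ebf4 was level at 0.10. Ebf3 went from 1378, 1423 and 1181 to 57.1, 100.1 and 99.1, Ebf1 fell by 3.18 and Ebf2 by 2.70. Tbx18, a marker of pericyte and epicardial lineages, fell by 3.20 and Foxc1, a factor of cranial and vascular mesenchyme, by 2.98. At 30 h the list stood at 16 higher and 21 lower.

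Among WNT, BMP and TGF-beta ligands and their antagonists, 15 of 49 tested members rose (30.6%) and 10 fell (20.4%). Over all tested genes the shares were 26.3% and 33.8%. Inhba, which encodes the activin subunit, went from 482.9, 485.4 and 382.3 to 3891, 3562 and 3364 (2.96 ± 0.113, adjusted p = 6.98e-13), Bmp4 rose by 2.07, Wnt7b by 1.89 and Tgfb2 by 1.85. Sfrp2, a secreted WNT antagonist, went from 2518, 2553 and 2712 to 101.8, 86.9 and 63.8 (-4.72 ± 0.128), and the antagonists Sfrp4 and Fst, follistatin, fell by 1.43 and 1.47. Of 50 other growth factors and cytokines 17 rose (34.0%) and 20 fell (40.0%). Pdgfb rose from 78.4, 73.3 and 64.9 to 1340, 1188 and 1096 (3.79 ± 0.123), Hbegf, a ligand of the EGF receptor, by 3.05 and the neurotrophic factor gene Gdnf by 2.66. Besides Angpt1 and Ptn, Hgf fell by 3.91, Vegfd by 3.43 and Fgf2 by 3.31. Both PDGF receptor genes fell in the same cells in which the ligand gene Pdgfb rose. Of 25 receptor tyrosine kinase genes 7 rose (28.0%) and 8 fell (32.0%), a balance that turned to 9 and 7 under each of the 3 other scalings. Flt1, a VEGF receptor, went from 236.3, 269.8 and 212.4 to 2853, 2100 and 2110, while Met, the HGF receptor, rose by 1.61.

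Cell adhesion genes gave high counts of rises, beside 26.3% over all tested genes. Of 25 tested immunoglobulin-type adhesion molecules 15 rose and 2 fell, with a median of 0.80. Ncam1, the neural cell adhesion molecule, went from 371.9, 367.5 and 289.1 to 5454, 5021 and 4771 (3.83 ± 0.13, adjusted p = 1.39e-13). Alcam rose by 3.42 and Bcam, a laminin receptor, by 3.08, while Kirrel and Jam2 fell by 0.91 and 0.38. Of 18 integrin genes, which encode receptors for the matrix, 11 rose and 2 fell, with a median of 0.53. Itga3, the subunit of a laminin-binding integrin, went from 429.9, 399.8 and 406.3 to 4085, 3980 and 4101 (3.25 ± 0.0746, adjusted p = 1.27e-15). Itga7, Itga6 and Itga1, whose products also bind laminin or collagen, rose by 3.01, 1.76 and 1.93. Itgb3, a subunit of vitronectin receptors, fell by 0.56. Of 30 cadherin-family genes 13 rose and 3 fell. The protocadherin gene Pcdh9 went from 19.2, 22.8 and 27.9 to 1203, 1498 and 1154, Pcdh18 rose by 4.03, and the classical cadherin genes Cdh2 and Cdh11 by 2.15 and 2.04. These excesses of rises were kept under all 3 other scalings, as 16 or 17 of the adhesion molecules, 11 of the integrins and 14 or 15 of the cadherins.

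Genes of neurite guidance and the neuronal cytoskeleton stood beside them. Of 60 tested guidance ligands and receptors 27 rose (45.0%) and 14 fell (23.3%), against 26.3% and 33.8% over all tested genes. Plxna4, a semaphorin receptor, went from 230.9, 217.7 and 195.4 to 3133, 3150 and 2948 (3.75 ± 0.104), and Sema7a rose by 3.11, Efnb2 by 2.43, Epha2 by 2.15, Robo1 by 1.98 and its ligand Slit2 by 1.78. Epha7 went the other way, from 3711, 4161 and 3407 to 192.2, 360.3 and 289.3 (-3.71 ± 0.161), and Nrp1, a co-receptor of semaphorins and VEGF, fell by 1.42. Of 23 genes of neuronal microtubules and vesicles 14 rose and 3 fell, with a median of 0.53. Besides Map2 and Rab3b, the tubulin gene Tubb2b went from 385.4, 348.9 and 441.3 to 5314, 4667 and 4974 (3.62 ± 0.112). At 30 h this list had 12 rises and no fall, with a median of 0.22. Of 14 genes of the smooth muscle contractile apparatus 8 rose and 1, Mylk, fell. Acta2, smooth muscle actin, went from 1404, 1086 and 1001 to 3370, 4563 and 4403 at 18 h (1.81 ± 0.131, adjusted p = 3.12e-09). At 30 h its difference was 0.18 (adjusted p = 0.274), and the times differed by 1.63 (adjusted p = 5.22e-05).

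In the matrix, the 3 classical collagen VI chains fell together by more than 8-fold, while the later described chains Col6a4, Col6a5 and Col6a6 were level (0.03, 0.05 and -0.09). Col6a2 went from 9054, 10029 and 10567 to 406.5, 312.7 and 326.2 (-4.77 ± 0.121, adjusted p = 3.9e-15), Col6a3 fell by 4.25 and Col6a1 by 3.54. The count over 43 collagen genes was nonetheless 12 higher (27.9%) and 7 lower (16.3%), against 26.3% and 33.8% over all tested genes. Col8a1 at 1.84 and Col18a1 at 1.05 led the rises. Of 61 proteoglycans and glycoproteins 18 rose (29.5%) and 23 fell (37.7%), or 21 and 21 with array medians set equal. Aspn, Omd and Ogn, small leucine-rich proteoglycans that lie side by side on chromosome 13, fell by 7.38, 3.93 and 2.93, while the related Dcn rose. Gpc6, a glypican that holds growth factors at the cell surface, went from 144, 138.4 and 154.3 to 4294, 4089 and 4086 (4.69 ± 0.087).

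Of 93 tested secreted and lysosomal protease genes 29 rose (31.2%) and 21 fell (22.6%), against 26.3% and 33.8% over all tested genes. Mmp2, the gelatinase typical of fibroblasts, went from 13368, 13702 and 14567 to 363.6, 423.5 and 513 (-4.96 ± 0.154, adjusted p = 4.79e-14). The neprilysin gene Mme fell by 4.24, the proprotein convertase gene Pcsk6 by 4.49, and Enpep by 5.92. Mmp10, Mmp3 and Mmp13, metalloproteinases of wound and inflamed tissue, rose by 5.69, 2.02 and 1.92, and Mmp13 by 2.26 without knockout replicate 1, its lowest knockout array. Of 39 protease inhibitors 6 rose (15.4%) and 13 fell (33.3%). Timp3, an inhibitor bound to the matrix, went from 1297, 1351 and 1110 to 9011, 9962 and 9902 (2.93 ± 0.0815). Serpinb2, an inhibitor of plasminogen activators, rose by 3.93, with knockout replicate 1 apart from the other 2 (627.7, against 1352 and 1578), and by 4.33 without that array. Serpina3n and Serpinb9c fell by 3.05 and 3.13.

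Genes of detoxification and lipid storage were counted in 3 lists. Of 33 tested genes of glutathione and its enzymes 22 fell and 7 rose, with a median of -0.44. Gstm4 went from 604.9, 610.4 and 691.8 to 41.4, 58.1 and 75.4 (-3.16 ± 0.144, adjusted p = 6.93e-12). Gstt3, Gstt1 and the microsomal transferase genes Mgst2 and Mgst1 fell by 3.04, 3.03, 2.66 and 2.51. Gclc, the rate-limiting enzyme of glutathione synthesis, fell by 1.32 and Nqo1, a quinone reductase, by 1.01, while Gstm7 and Gstp1 rose by 0.77 and 0.47. Of 83 genes for cytochromes P450 and for aldehyde, retinoid and steroid enzymes 29 fell and 20 rose, close to the array as a whole. The falls were larger, 15 of them past 2-fold against 4 rises. Besides Cyp2f2 they included Akr1c12 at -4.19, the retinaldehyde dehydrogenase gene Aldh1a1 at -3.95, the retinol carrier gene Rbp4 at -3.00 and Cyp1b1 at -2.92. Cyp1b1 read 1853 on knockout replicate 1 and 716.2 and 746.6 on the other 2, and was at -3.36 without replicate 1. Of 9 tested adipocyte markers 8 fell and none rose. Fabp4, a fatty acid carrier, went from 2991, 3142 and 2740 to 52.8, 81.5 and 109.3, Lpl fell by 3.61 and Pparg, the master regulator of fat cells, by 2.44. The summed intensity of that list was 21138 to 21337 in wild type and 2166 to 2361 in knockout.

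Innate immune genes were counted in 3 lists as well, outside the interferon list except for the chemokine gene Ccl5, which fell by 3.39. Of 14 tested complement genes 12 fell and 1 rose, with a median of -1.47. C4b went from 984.3, 1315 and 1405 to 24.7, 30.8 and 37.2 (-4.73 ± 0.126, adjusted p = 7.15e-15). The regulators Cd59a and Cd55, which shield cells from complement, fell by 2.84 and 1.87 along with the proteases Masp1 and C2. Clu, a chaperone that also blocks the terminal complex, rose by 0.85. At 30 h 12 fell and none rose. Of 12 Toll-like receptors and adaptors 7 fell and none rose, or 7 fell and 1 rose with quantile or loess scaling. Myd88, the shared adaptor, fell from 3687, 3515 and 4225 to 1011, 838.1 and 809 (-2.09 ± 0.107), Ly96, the partner of TLR4, by 1.95 and Tlr4 itself by 0.82. Of 19 chemokine genes 8 fell (42.1%) and 3 rose (15.8%), against 33.8% and 26.3% over all tested genes. Ccl9 went from 7955, 7812 and 8420 to 426.8, 484.4 and 603.2 and Ccl20 rose by 0.74.

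Of 20 tested genes of cell cycle inhibition and p53, 12 fell and 5 rose, with a median of -0.32. Cdkn2b, which encodes the p15 inhibitor of CDK4 and CDK6, went from 1502, 1531 and 1675 to 174.7, 132.3 and 141.2 (-3.27 ± 0.108, adjusted p = 1.1e-13). Its neighbour Cdkn2a fell by 1.11 and the p53 antagonist gene Mdm2 by 0.71. Cdkn2d, a relative of Cdkn2b, rose by 1.12 and the cyclin gene Ccnd1 by 0.92. Among 19 imprinted genes, which are read from 1 parental copy, 2 rose (10.5%) and 6 fell (31.6%). Over all tested genes the shares were 26.3% and 33.8%. Peg10 fell from 8953, 9404 and 9258 to 2142, 1940 and 1672 and Ndn by 2.77, while Peg3 rose by 1.94.

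Solute carriers had shares near the array as a whole, 28.8% higher and 31.6% lower. G protein-coupled receptors had a smaller share of falls (27.2%) and ion channels a smaller one still (19.6%), against 33.8% over all tested genes. Of 215 solute carrier genes 62 rose and 68 fell, of 112 ion channel genes 27 and 22, and of 114 G protein-coupled receptor genes 28 and 31. The solute carrier and receptor counts tipped to more rises than falls under each of the 3 other scalings. Individual members still moved far. Slc16a3, the lactate exporter MCT4, went from 84.2, 103.4 and 75.9 to 2623, 1813 and 1771 (4.31 ± 0.145). Slc43a3, a purine base transporter, went from 8555, 9104 and 9118 to 638.3, 740.2 and 634.8 (-3.70 ± 0.073). The calcium-activated chloride channel gene Ano1 rose by 3.22 and the T-type calcium channel gene Cacna1g fell by 2.94. Ramp3, a partner of calcitonin-family receptors, rose by 4.65. Among housekeeping genes the transferrin receptor gene Tfrc, which brings iron into cells, rose from 578.1, 585.4 and 449.4 to 4271, 4111 and 4229 (2.94 ± 0.0896), while the other 12 tested members differed by less than 1 on the log2 scale.

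The serum shock makes the circadian list of particular interest. Of 21 tested clock and output genes 11 rose (52.4%) and 6 fell (28.6%), against 26.3% and 33.8% over all tested genes. The activator gene Arntl, which encodes BMAL1, read 780.6, 711.2 and 632.7 in wild type and 1485, 1619 and 1528 in knockout (1.11 ± 0.101, adjusted p = 5.94e-08), and its partner gene Clock was at -0.21 (adjusted p = 0.0553). The repressor genes Bhlhe40 and Bhlhe41 rose by 1.53 and 0.88, and Nfil3, a repressor of clock outputs, went from 664.3, 682.9 and 718.7 to 1579, 1938 and 2056 (1.40 ± 0.0932). The output gene Tef, an activator of the same sites that Nfil3 represses, went from 2016, 2130 and 2021 to 829, 787.3 and 784.1 (-1.34 ± 0.0757). Dbp, another such activator, fell by 0.42. Hlf, the third of these activators, read 341.3, 306.1 and 355.2 against 391.2, 395.6 and 388.8 and was not called (0.22, adjusted p = 0.0702).

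The period and cryptochrome genes, the negative arm of the clock, also parted. Per1 rose by 0.47 and Cry1 by 0.59, while Per2 fell by 0.49 and Per3 by 1.37. The nuclear receptor genes that drive and repress Arntl differed too, with Rora higher by 0.70 and Nr1d2 lower by 0.56. Fbxl21, an F-box protein that binds cryptochromes, rose by 0.91 and Timeless fell by 0.91. The repressor gene Ciart (0.13) and the kinase gene Csnk1d (0.12) were not called at 18 h (adjusted p = 0.455 and 0.0834). Nr1d1 read 1427, 1563 and 1709 in wild type and 1471, 2570 and 2722 in knockout, so that replicate 1 lay among the wild-type arrays. The value for Nr1d1 at 18 h of 0.47 (adjusted p = 0.0164) was 0.75 (adjusted p = 5.76e-07) without that array, and the call was lost with only the arrays of 18 h (adjusted p = 0.0603) and without wild-type replicate 1, knockout replicate 2 or knockout replicate 3 (0.31 to 0.41). Cry2, at 0.23 (adjusted p = 0.0436), lost its call in 9 of 24 other settings, at 0.15 without knockout replicate 2. Several of these differences were not the same at 30 h, by the test of the difference between times. Arntl was at -0.18 at 30 h (difference between times 1.29, adjusted p = 4.7e-05), Per2 at 0.40 (-0.89, adjusted p = 0.000191), Dbp at 0.30 (-0.72, adjusted p = 0.00186) and Csnk1e at 0.13 (0.57, adjusted p = 0.00289). Tef, Nfil3 and Per3 kept their direction at 30 h with smaller differences, -0.57, 0.66 and -0.45. The difference between times was called for each (adjusted p = 0.000263, 0.00118 and 0.00161). Bhlhe40 and Cry1 were still higher at 30 h, at 2.01 and 0.53, and for Bhlhe40 the difference between times was called (-0.48, adjusted p = 0.00679). It was not called for Cry1, Bhlhe41, Fbxl21 or Timeless.

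**Figure D4:**
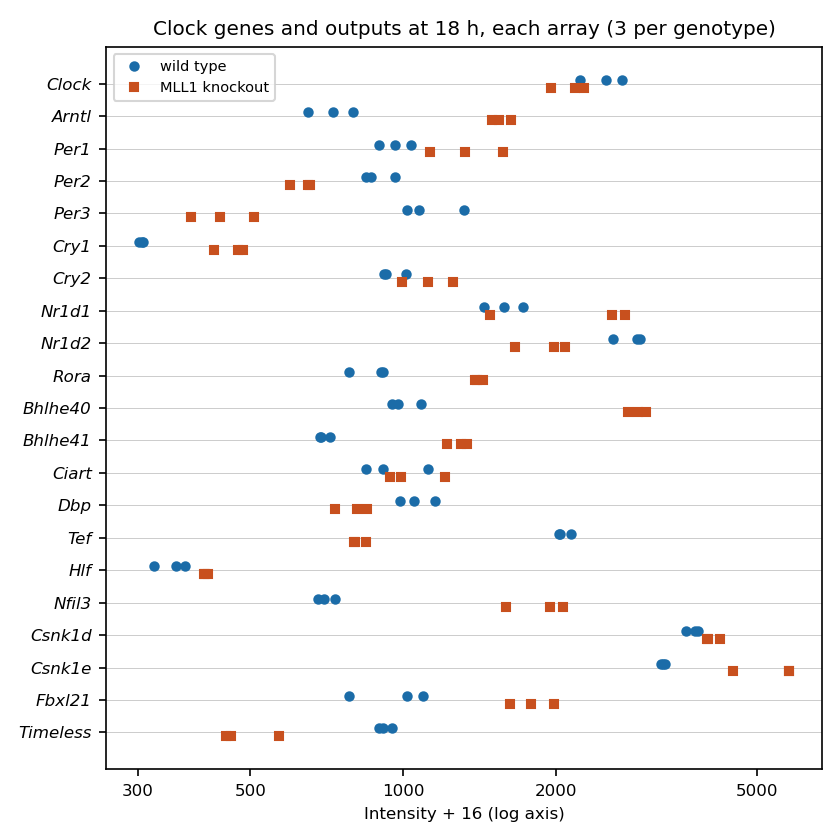
Intensity + 16 on a log axis for the 21 tested clock and output genes at 18 h; circles are the 3 wild-type arrays and squares the 3 knockout arrays. Arntl, Nfil3 and Bhlhe40 lie clearly to the right in knockout and Tef and Per3 to the left, while for Nr1d1 1 knockout array (1471) lies among the wild-type ones.

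At 30 h 52.9% of tested genes were called, and the difference between times was called and at least 2-fold for 1.74%. Few genes differed in opposite directions at the 2 times. Of the tested genes 187 were called in opposite directions. Opposite calls from the same fit all but fix the test of the difference between times, which was called for all 187. Gadd45a, a stress gene of growth arrest, had the largest, at 0.93 at 18 h and -1.45 at 30 h. Its knockout arrays at 18 h read 1160, 2181 and 2296 against 1003, 860.5 and 948.6 in wild type, and without replicate 1 its 18 h difference was 1.24. Nos2, the inducible nitric oxide synthase, read 775.8, 937.9 and 840.4 in wild type and 2302, 1886 and 1912 in knockout (1.24 ± 0.107), and was at -0.60 at 30 h. The stress factor gene Atf3 was at 0.84 and -0.95, and Spry1, an inhibitor of receptor tyrosine kinase signalling, at 0.89 and -0.55. In the other direction, Gpr149, an orphan receptor gene, was at -0.32 at 18 h (adjusted p = 0.0228, a call lost in 5 of 24 other settings) and 1.46 at 30 h.

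Probe sets for 122 microRNA loci were tested, of which 11 were higher (9.02%) and 18 lower (14.8%), below the shares over all genes. They read precursor or host transcripts on the array, not the mature microRNA. The loci were chosen for description after their values were seen, and 112 of the 122 matched the RefSeq microRNA table, build GRCm38.p6. Mir221 and Mir222, which lie together on the X chromosome, were the loci that rose by 2-fold. Their mature products and those of 2 other loci pairs that moved together are shown 5′ to 3′, with the seed, bases 2 to 8, in capitals. Each pair shares its seed.
miR-221-3p: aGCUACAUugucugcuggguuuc
miR-222-3p: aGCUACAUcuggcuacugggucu
miR-15b-5p: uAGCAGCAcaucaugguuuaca
miR-16-5p: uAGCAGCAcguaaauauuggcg
let-7d-5p: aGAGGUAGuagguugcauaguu
let-7e-5p: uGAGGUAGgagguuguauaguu

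Mir221 read 283.6, 200.3 and 255.2 in wild type and 573.4, 745.2 and 800.0 in knockout (1.46 ± 0.136, adjusted p = 7.78e-08). Mir222 read 159.1, 186.7 and 150.6 against 412.2, 477.9 and 411.6 (1.31 ± 0.159, adjusted p = 1.91e-06). Mir221 and Mir222 kept the difference at 30 h, at 1.42 and 1.43. The pair with the seed AGCAGCA, Mir15b and Mir16-2, rose by 0.71 and 0.87 at 18 h and was at 0.14 and 0.04 at 30 h. The difference between times was called for Mir16-2 (0.83, adjusted p = 0.0224) but not for Mir15b (adjusted p = 0.171). The let-7 loci Mirlet7d and Mirlet7e, whose products carry the seed GAGGUAG, fell by 0.77 and 0.89 at 18 h and were at -0.21 and 0.13 at 30 h, and the difference between times was called for both (adjusted p = 0.013 and 0.00142). Without knockout replicate 1 the 18 h differences of Mir15b and Mir16-2 were 0.99 and 1.06. Mir15b overlapped between genotypes, at 246.2, 216.7 and 151.6 in wild type and 226.7, 468.3 and 368.5 in knockout.

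The genes were last placed along the chromosomes by their RefSeq positions in GRCm38.p6. The median difference over all tested genes was -0.03. Chromosome 16 had the lowest median, -0.245 over 434 genes, of which 53.7% were lower and 15.2% higher. Chromosome 10 followed at -0.163 over 657 genes, with 46.1% lower. At the other end lay chromosome 18 at 0.139, where 41.8% of 335 genes were higher, and chromosome 9 at 0.118 with 40.9% of 787. The 3 knockout arrays gave chromosome 16 separate medians of -0.211, -0.260 and -0.258 against the wild-type mean. At 30 h the same 4 chromosomes had medians of -0.190, -0.133, 0.167 and 0.171. Under the 3 other scalings chromosome 16 stayed between -0.213 and -0.198 and chromosome 18 between 0.186 and 0.210. Leaving out interferon and HOX genes left chromosome 16 at -0.242. Genes on a chromosome share these arrays, so the medians are a description of the lines as labelled.

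**Figure D5:**
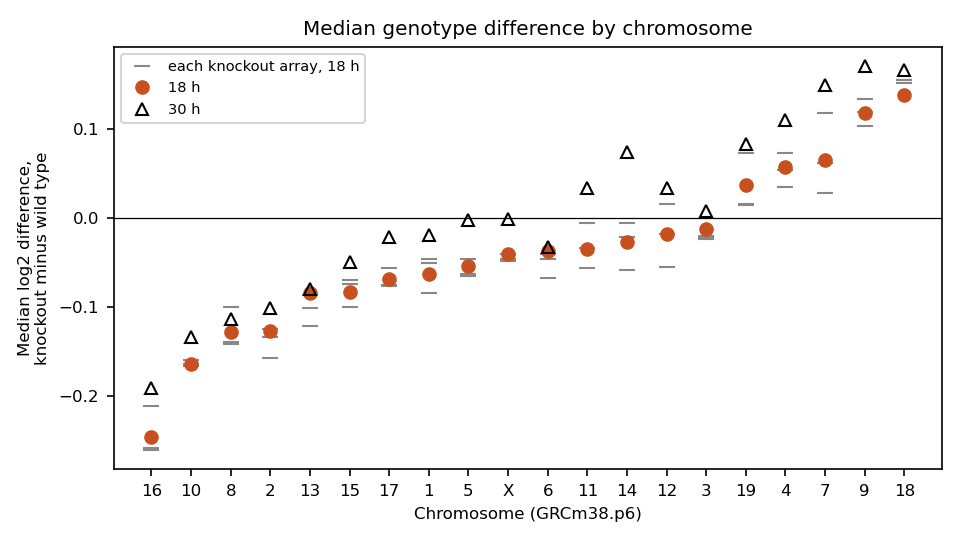
Median log2 difference, knockout minus wild type, of the tested genes on each chromosome, ordered by the value at 18 h (filled circles); open triangles are 30 h and grey bars each knockout array at 18 h against the wild-type mean. Chromosomes 16 and 10 lie lowest and 9 and 18 highest at 18 h, and each keeps its sign at 30 h.

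Neighbouring genes fell together in places. There were 14 runs of at least 4 neighbouring tested genes that were all called in 1 direction by 2-fold or more, and all 14 were falls. Several were clusters of interferon or HOX genes, and 5 held none. On chromosome 13 the run was Aspn, Omd, Ogn and Nol8. On chromosome 10 it was Tspyl4, Nt5dc1, Col10a1 and Frk, in which the tyrosine kinase gene Frk went from 2446, 2674 and 2455 to 396.0, 316.9 and 264.3. Chromosome 16 held 2, Gtpbp8, Ccdc80, Slc35a5 and Atg3, with falls of 1.48, 1.82, 1.66 and 1.25, and Nsun3, Pros1, 4930453N24Rik and Zfp654, in which Pros1, the anticoagulant protein S, fell by 1.91. The last, on chromosome 17, was 4 zinc finger genes, Zfp943, Zfp947, Zfp944 and Zfp758, which fell by 1.52, 1.80, 1.08 and 1.57. At 30 h the 4 zinc finger genes were lower by 0.42 to 0.67, and the difference between times was called for each.

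Genes of the sex chromosomes were checked last. Xist, the RNA that silences 1 X chromosome in female cells, was bright in both genotypes, at 2171, 2867 and 1812 in wild type and 2641, 3180 and 2940 in knockout. The difference of 0.37 had an adjusted p of 0.0184 and lost its call without wild-type replicate 1, wild-type replicate 3 or knockout replicate 2 (0.22 to 0.35). The Y-linked Kdm5d read 251.8 to 257.3 and 199.1 to 260.1 and was not called (adjusted p = 0.396). Of 6 tested sex-linked genes 1 other was called, Ddx3x, at -0.40. Kdm5c, Kdm6a and Eif2s3x were at 0.11, -0.04 and 0.03 and were not called.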

How the data were processed

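The values were intensities that the authors deposited for 12 arrays, for which the submitters' processing notes name PLIER 2.0 and Affymetrix Expression Console 1.1. No source used here says how arrays were normalized to each other. Each of 19938 genes with 1 symbol was represented by its brightest probe set on average, and 16 was added before log2 of the deposited intensities. Genes under the 30th percentile of the mean (intensity 175) were not tested. Group means of the 4 groups were fitted with limma 3.58.1 in R 4.3.3, with an intensity trend and Benjamini-Hochberg adjustment over 13956 genes. The number of arrays limits the precision. On simulated data for the comparison at 18 h over 13956 genes, 99 of 100 changes of 1.0 and 82 of 100 of 0.5 (log2) were recovered, with 13 false calls. The simulation used independent noise and changed no other genes, while 60.1% of tested genes were called in the data. The main fit did not pair arrays by replicate number. Same-numbered arrays of the 2 genotypes at 18 h had deviations correlated at -0.0259, 0.0811 and 0.197. Over all 12 arrays, same-numbered pairs from different groups ran from -0.456 to 0.454 and differently numbered ones from -0.398 to 0.463. With 3 arrays per group these values cannot settle whether replicate numbers pair samples.

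Members and lists were chosen with earlier results of these data known. The rule for naming covered Kmt2a, the 12 largest rises and falls, the 12 brightest genes of each group bright in 1 genotype, all tested clock and sex-linked genes, up to 2 genes of each list in each direction, of which not all are described, and 4 genes of opposite direction at the 2 times in each direction. Predicted, HOX and interferon-stimulated genes were passed over. Other genes named were chosen after their values were seen. Alternatives covered the offset, the filter, the scaling, the eBayes prior, the probe set, the replicate block, the arrays fitted and each array left out.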

Additional observations from a re-analysis of the deposited data

Results flagged for a closer look

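The difference between knockout and wild type was itself different between 18 h and 30 h by 2-fold or more in 243 genes (limma, adjusted p under 0.05), 1.74% of those tested. Each value here is the difference at 18 h minus that at 30 h on the log2 scale. It was 3.61 for Tnfsf18, 2.38 for Gadd45a, 1.83 for Nos2, 1.79 for Atf3, 1.63 for Acta2, 1.43 for Spry1 and 1.29 for Arntl. It was 1.14 for Il13ra1, 1.14 for Serpinb2, 1.09 for Cd68, 1.05 for Pcdh9, 1.02 for Itgb3 and 1.00 for Itga7. Negative values were found for Gpr149 (-1.78), Setd1b (-1.19), Gdpgp1 (-1.18), Dmpk (-1.03) and Spaca6 (-1.0).

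Knockout replicate 1 at 18 h lay nearer to wild type than the other 2 knockout arrays in several of these genes. Dmpk read 1459, 1767 and 1468 in wild type and 1540, 870.6 and 812.6 in knockout, and Gdpgp1 read 508.2, 529.5 and 484.2 against 521.8, 246.7 and 265.7. Without that array their differences at 18 h were -0.88 and -0.94, against -0.59 and -0.62 with it.

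Of 13768 probe sets with no symbol or several symbols, which entered no comparison, 10 were bright in wild type only and 2 in knockout only by the same intensity limits.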

How the results depend on the processing

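Of 183 named genes, 171 kept their call at 18 h in all 24 other settings, and no named value was reversed. The count of genes called for knockout against wild type at 18 h was 8384, 7718 to 8507 with 1 array left out, 8262 with the replicate block and 2014 when a 2-fold difference was also required. The difference between times was called in 2838 genes, in 1895 to 4145 with 1 array left out (lowest without knockout 18 h replicate 2, highest without knockout 18 h replicate 1) and in 2725 with the replicate block. Of genes bright in 1 genotype, 120 were called in the same direction at 30 h, as they were with each array left out and with the replicate block. With the filter at the 50th percentile, which tests fewer genes, 49 were. These counts are a description, because such genes pass the filter mainly through the arrays of their bright genotype. The block also called Clock at 18 h (-0.21, adjusted p = 0.0309) and changed no other call of a named gene. Of 43 lists 19 had more rises than falls, 18 to 21 with 1 array left out, 19 with the block, and 23, 23 and 22 for gene lists at 18 h with quantile, median and loess scaling.

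The 84 genes bright in wild type only became 129, 44 and 36 with limits of 500 and 100, 2000 and 100, and 1000 and 50, and 85 to 94 with 1 array left out. The 40 bright in knockout only became 88, 13 and 15 with these limits, 69 with 1000 and 200, and 41 to 46 with 1 array left out. In both groups, leaving out an array could only keep or add genes, because every array had to meet its limit. The 14 runs of neighbours became 49 with 3 genes a run and 320 with called genes of any size. Genes near background have understated differences on this scale.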
